A study of Rattus norvegicus with 6 samples.

Results

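The comparison described here set the livers of 2 tienilic acid (TA) treated rats against a vehicle pool at 24 h, after 2 doses. Its members were the arrays whose titles name tienilic acid or control at 24 h, which gave 3 of the 6 arrays of the study. All animals were male Sprague Dawley rats dosed by gavage, either with TA at 100 mg/kg dissolved with an equimolar amount of sodium bicarbonate or with sodium bicarbonate alone. At 24 h the treated rats had received TA at 0 and 16 h, and the vehicle rats 2 doses of bicarbonate at those times. Livers were submerged in RNAlater, and RNA was hybridised to Affymetrix Rat230_2 arrays. Each treated array held RNA of 1 rat, named animal 1 and animal 2 after the replicate number in the title. The vehicle array of 24 h held RNA pooled from 2 rats. A second pool from 2 other vehicle rats, taken 6 h after 1 dose of bicarbonate, served as a second reference. The remaining 2 arrays, TA at 6 h, entered through the shared estimate of the error, the mean over 6 arrays used to filter and choose probe sets, and a test of whether the TA effect differed between times.

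Tienilic acid is a uricosuric diuretic that was withdrawn because of hepatitis. Its thiophene ring is oxidised by liver cytochromes P450 of the 2C family to reactive products that bind the enzyme itself, and patients with hepatitis carried antibodies against that enzyme. The series title asks about acute gene induction in the rat and a possible role for danger signals, molecules from stressed cells that alert the immune system. The liver responds to reactive drugs through glutathione and conjugating enzymes, and shifts its amino acid, lipid and plasma protein output with feeding, hormones and inflammation.

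Values are log2 levels as deposited. A difference is the mean of the 2 treated animals minus the 24 h pool, with its standard error (SE) from limma, a linear model fitted across all probe sets. Nothing in the pool measures the spread between vehicle rats, so the SE assumes that a vehicle array varies as a treated one does. Both treated animals were set against the same pool, so an error in that pool shifts both differences alike. The median SE over 18625 probe sets was 0.15. The median absolute difference between the animals was 0.14, and that between their mean and the pool was 0.11. Averaging 2 animals and pooling 2 rats tend to make the second value smaller even without a treatment effect. The 2 values therefore cannot be compared as sizes of effect and of spread. The 6 h pool differed from the 24 h pool in time after the first dose and in number of doses, which cannot be told apart, and the hour of day at sampling is not given.

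The arrays were alike in overall level, with medians of 3.27 to 3.31 over the 6 arrays and correlations between arrays of 0.98 to 0.99. GAPDH probe sets at the 3′ end exceeded those at the 5′ end, a guide to how intact the RNA was, by 2.04 in the 24 h pool and by 1.91 and 1.82 in the animals. The arrays carried liver: all 20 measured hepatocyte markers passed the filter on low values, albumin (Alb) stood at 16.54 in the pool and at 16.54 and 16.60 in the animals, and the log2 of the summed markers was 19.38, 19.34 and 19.35. Of blood cell markers, 2 of 9 measured for neutrophils, 3 of 9 for B cells, 14 of 23 for T and NK cells and 8 of 11 for erythroid cells were above the filter. By gaps between the instrument times, all 3 arrays of 24 h fell in the same inferred fluidics run, and the 6 h pool in another.

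In limma's test 1 of 18625 probe sets passed an adjusted p of 0.05, which is 0.00537% of those tested, and 0 of those with a gene symbol did. The called probe set, 1393108_at, has no symbol here. It was at 9.84 in the 24 h pool, at 2.22 and 2.25 in the animals and at 2.61 in the 6 h pool, so that the 24 h pool alone stood above the floor of the values. The call was absent without either TA animal of 6 h, where 0 probe sets were called, and against the 6 h pool. Among probe sets with a symbol the smallest adjusted p was 0.0898 (limma), again for a pool value far from the rest. An unadjusted p under 0.05 was reached by 984 probe sets, or 5.28%, of which 370 were higher and 614 lower. The genes below are therefore described by their values and sizes, and the adjusted p of every gene named was 0.0898 or more.

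Both animals exceeded the 24 h pool by 2-fold or more in 44 probe sets (0.236%) and were below it by as much in 64 (0.344%). Leaving out animal 1 these counts were 192 and 217, and leaving out animal 2 they were 137 and 275, since 1 animal alone passes 2-fold more easily. The vehicle pools were themselves 2-fold apart in 22 of the 44 (50%) and in 35 of the 64 (54.7%), against 591 (3.17%) of all probe sets. The 24 h pool enters both this selection and the distance between the pools, so a larger share is partly built in. For 13 of the 44 the treated mean was below the 6 h pool, and for 14 of the 64 it was above it. Probe sets at least 2-fold beyond both pools in both animals were 14 higher (0.0752%) and 24 lower (0.129%). Without animal 1 these counts were 91 and 111, and without animal 2 they were 71 and 180.

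**Figure D1:**
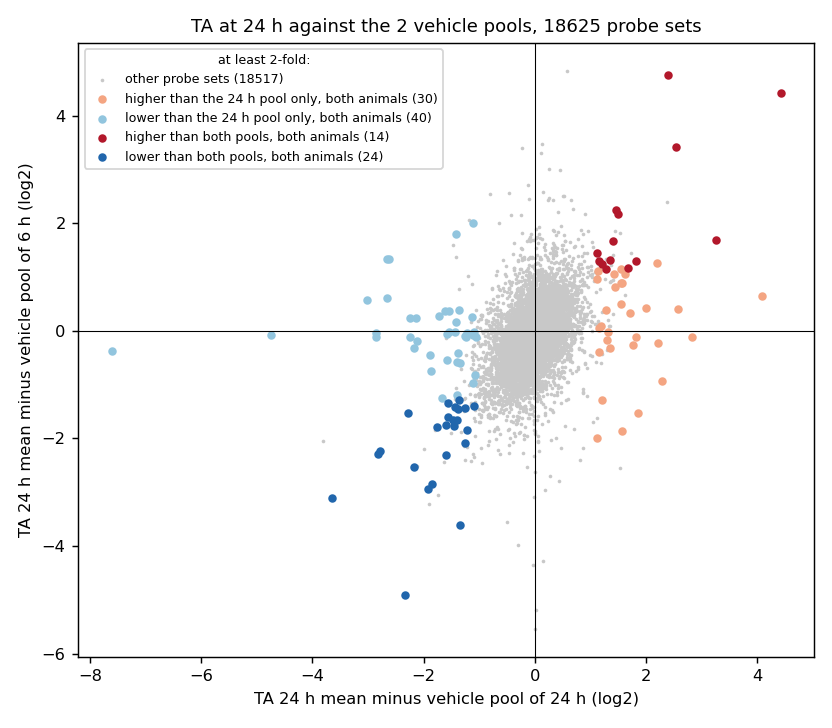
Each point is 1 of 18625 probe sets, with the mean of the 2 TA animals minus the vehicle pool of 24 h on the x axis and minus the vehicle pool of 6 h on the y axis, both in log2. The 14 dark red and 24 dark blue points were at least 2-fold beyond both pools in both animals, and the paler points at least 2-fold from the 24 h pool only; several of these lie near 0 on the y axis.

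Of the 14 probe sets above both pools, 10 had a gene symbol. Noct, the clock-controlled phosphatase nocturnin, was at 5.02 in the 24 h pool, 7.74 and 7.06 in the animals and 2.65 in the 6 h pool, a difference of 2.38 ± 0.33. Per2, a repressor of the clock, was at 4.84, 6.22, 6.37 and 4.04 in the same order on the probe set that passed. Its stronger probe set gave 8.49 in the 24 h pool, 8.60 and 8.87 in the animals and 5.72 in the 6 h pool, a difference of 0.25 ± 0.20. The size for Per2 thus depended on the probe set. Adora2b, the low-affinity adenosine receptor, was at 3.61 in the 24 h pool, 7.25 and 5.02 in the animals and 2.73 in the 6 h pool. Both animals stood above both pools, but they were more than 2-fold apart from each other, and the difference of 2.53 had an SE of 1.04.

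Slc25a25, a mitochondrial carrier that exchanges ATP-Mg for phosphate, was at 9.88 in the 24 h pool, 11.47 and 11.09 in the animals and 9.61 in the 6 h pool. Gsta3, a glutathione transferase of the alpha class, was at 9.42, 10.73, 10.49 and 9.36 in that order. For both genes the pools lay close together and the animals apart from them. Ccne2, cyclin E2, which drives entry into DNA replication, was at 4.95 in the 24 h pool, 6.08 and 6.11 in the animals and 4.80 in the 6 h pool. Slbp, which binds the stem-loop of histone mRNAs made during replication, was at 5.89, 7.11, 7.21 and 6.02. Both Slbp and Ccne2 had nearly the same value in the 2 animals, though the other 2 probe sets of Slbp, near the floor, gave 0.00 and -0.01.

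A2ml1, a broad protease inhibitor related to alpha-2-macroglobulin, was at 2.24 in the 24 h pool, 5.88 and 5.11 in the animals and 3.80 in the 6 h pool. Cdh17, a cadherin of liver and intestine, was at 6.61, 8.44, 8.42 and 7.14 in that order. Its SE of 2.14 exceeded its difference of 1.82, and the TA animals of 6 h, which enter the same SE, were at 7.57 and 2.89. Tmem276 was at 6.04, 7.12, 7.20 and 5.71, and its 3 other probe sets gave differences of 0.30, 0.17 and 0.21. The largest difference from the 24 h pool among these belonged to 1393302_at, which has no symbol here, at 2.31 in both pools and 5.83 and 7.64 in the animals.

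The lower side held 24 probe sets, 17 of them with a gene symbol. Mt2A, which encodes a small cysteine-rich protein that binds zinc and copper, was at 10.39 in the 24 h pool, 8.04 and 8.09 in the animals and 12.98 in the 6 h pool. Its difference was -2.33 ± 0.29, and the animals lay close together below 2 pools that were themselves far apart. Mt1, another metallothionein, was at 6.26 in the 24 h pool, 5.69 and 4.61 in the animals and 7.44 in the 6 h pool. Mt3, near the floor, was at 2.82, 2.82, 2.79 and 2.83 in that order. Mt2A and Mt1 are induced through metal response elements, and their promoters are shown because these 2 genes were low together. Each is the 250 bases before the transcription start from RefSeq on build GRCr8, minus strand, with matches to the element's core, TGCACNC or TGCGCNC on either strand, in capitals. The Mt2A promoter lies at chr19:10838709-10838958 and the Mt1 promoter at chr19:10832976-10833225.
Mt2A: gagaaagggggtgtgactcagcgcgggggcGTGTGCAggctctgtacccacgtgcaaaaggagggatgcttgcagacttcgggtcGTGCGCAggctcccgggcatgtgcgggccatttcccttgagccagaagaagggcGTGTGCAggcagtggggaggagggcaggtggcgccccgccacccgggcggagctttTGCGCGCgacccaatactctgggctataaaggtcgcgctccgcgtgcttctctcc
Mt1: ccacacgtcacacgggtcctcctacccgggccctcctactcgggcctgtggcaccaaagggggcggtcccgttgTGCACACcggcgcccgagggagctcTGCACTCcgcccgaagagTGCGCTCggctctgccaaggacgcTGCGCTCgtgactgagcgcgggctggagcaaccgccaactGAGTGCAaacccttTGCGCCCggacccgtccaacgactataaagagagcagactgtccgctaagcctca
The Mt2A window held 4 matches and the Mt1 window 6. Of 33469 promoter windows of the same length, 20.6% held at least 1 match, 0.266% at least 4 and 0.0269% at least 6. A match describes the letters only.

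Traf6, an adaptor of Toll-like and interleukin-1 receptors, was at 8.66 in the 24 h pool, 5.71 and 4.29 in the animals and 8.10 in the 6 h pool on 1 probe set. Its other probe sets gave differences of -0.33, -0.53 and -0.04, the last at 7.82 in the pool and 7.85 and 7.71 in the animals, so that the large value was that of 1 probe set. The same held for several others of this group. Fnip1, a partner of folliculin in nutrient sensing, had -2.28 on 1 probe set and -0.13 on the stronger one. Tm9sf3 had -1.57 beside -0.01, Sptbn1, a beta spectrin, -1.38 beside -0.25, and Rfc1, the large subunit of replication factor C, -1.22 beside 0.06. Cdkn1b, the cell cycle inhibitor p27, was at 6.94 in the 24 h pool, 5.27 and 4.28 in the animals and 7.30 in the 6 h pool. Its stronger probe set was at 9.34, 8.92, 8.57 and 9.34, lower in both animals by less than 2-fold.

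Among the other genes below both pools, Serpina7, thyroxine binding globulin, was at 8.43 in the 24 h pool, 6.71 and 6.30 in the animals and 9.44 in the 6 h pool. A2m, the rat's acute phase protease inhibitor alpha-2-macroglobulin, was at 9.04, 8.01, 6.87 and 9.75 in that order. Lpl, lipoprotein lipase, was at 7.62, 6.39, 5.73 and 7.41. Each of these secreted proteins was lower in both animals, with animal 2 the lowest of the 4 arrays. Casp12, a caspase of the endoplasmic reticulum, was at 6.43 in the 24 h pool, 2.71 and 4.53 in the animals and 5.90 in the 6 h pool. Mertk, a receptor through which macrophages take up dying cells, was at 5.98, 4.90, 4.54 and 6.81. Gas6, a ligand of that receptor, was at 4.88, 2.80, 2.46 and 2.74 on 1 probe set and at 11.33, 10.88, 10.20 and 10.87 on the stronger one. The third probe set of Gas6 gave -0.53, and the second one of Mertk, near the floor, -0.01. Gas6 was lower than the 24 h pool on all 3, but the 6 h pool was at the level of the animals on the first, and on the strongest it lay between them.

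The remaining genes below both pools were Palld, palladin of actin bundles, with a difference of -1.10 ± 0.26, Ablim3, an actin-binding protein, with -1.43 ± 0.39, Lrrn4 with -1.26 ± 0.25 beside 0.00 and -0.05 on its other probe sets, Med13, a Mediator subunit, with -1.46 ± 0.33, and the zinc finger gene Zfp212 with -1.37 ± 0.83. A second probe set gave -0.76 for Ablim3, 0.02 for Med13 and 0.11 for Zfp212.

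**Figure D2:**
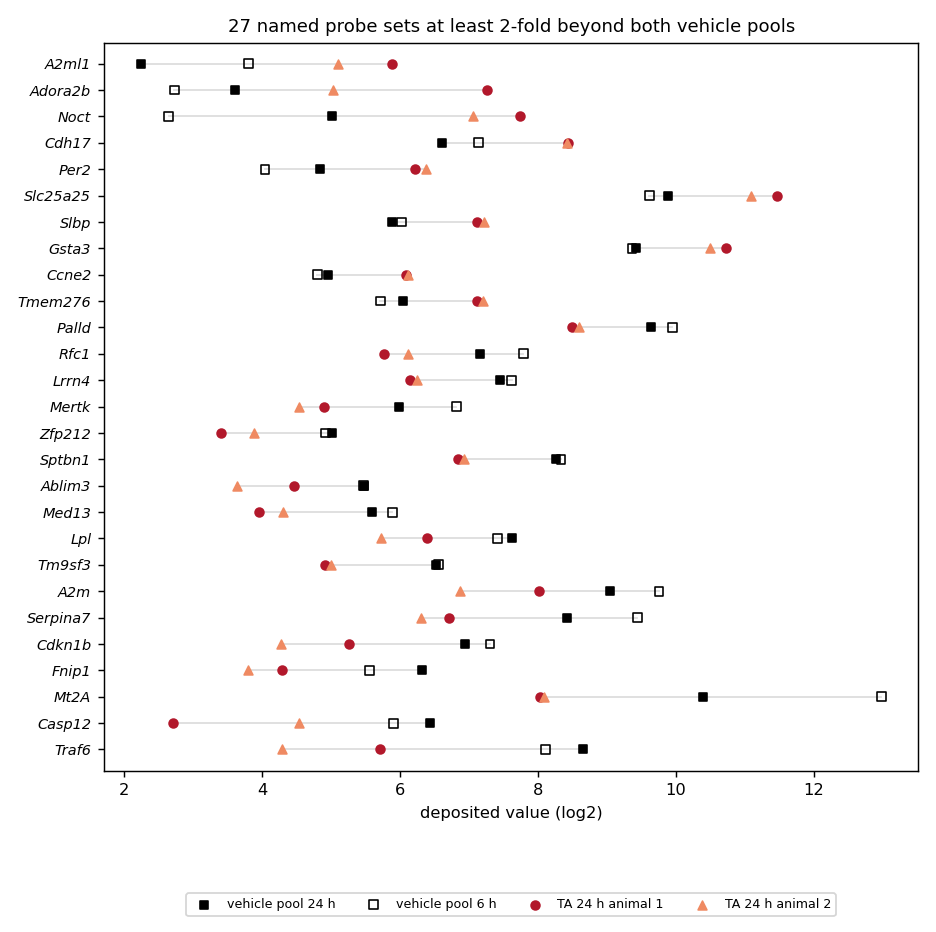
Deposited log2 values of the 27 probe sets with a gene symbol that were at least 2-fold beyond both vehicle pools in both TA animals, ordered by their difference from the 24 h pool. Filled squares are the 24 h pool, open squares the 6 h pool, circles animal 1 and triangles animal 2; Mt2A is at 8.04 and 8.09 in the animals against 10.39 and 12.98 in the pools.

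Other genes were at least 2-fold from the 24 h pool in both animals but not 2-fold beyond both pools in the same direction. Sds, serine dehydratase, which turns serine into pyruvate, was at 6.73 in the 24 h pool, 10.94 and 10.68 in the animals and 10.16 in the 6 h pool. Sqor, which oxidises sulfide in mitochondria, was at 8.79, 10.02, 12.00 and 11.23 in that order, and Onecut1, a liver transcription factor, at 8.40, 10.31, 10.19 and 11.78. In each case the 24 h pool was the lowest of these 4 arrays. The 6 h pool lay below both animals for Sds, between them for Sqor and more than 2-fold above both for Onecut1. Slc25a30, a mitochondrial carrier, was alike on both probe sets, at 2.44, 3.81, 4.21 and 5.88 on 1 and at 8.73, 9.79, 9.91 and 11.84 on the other, with the 6 h pool more than 2-fold above both animals on each.

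Abcg5 and Abcg8, which form the dimer that exports sterols into bile, were both higher than the 24 h pool. Abcg5 was at 5.09 in that pool, 7.20 and 8.12 in the animals and 7.26 in the 6 h pool, a difference of 2.57 ± 1.09. Abcg8 was at 2.62, 3.66, 4.66 and 3.67 in the same order, a difference of 1.54 ± 1.25, so that for both animal 2 was highest and animal 1 lay at the level of the 6 h pool. The genes lie head to head and share the stretch between their starts, which GATA factors are known to bind. That stretch, chr6:15717731-15717935 on GRCr8 from RefSeq, is shown in the direction of Abcg5 with GATAA on either strand in capitals.
Abcg5-Abcg8 interval: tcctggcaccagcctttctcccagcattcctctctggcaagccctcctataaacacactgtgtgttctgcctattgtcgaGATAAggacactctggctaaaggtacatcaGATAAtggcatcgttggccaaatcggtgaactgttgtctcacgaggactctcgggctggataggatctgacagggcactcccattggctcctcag
It held 2 matches in 205 bases. Of 33469 promoter windows of that length, 19.4% held at least 1 and 3.07% at least 2. Abca1, which loads cholesterol onto apolipoprotein A1, gave opposite directions by probe set. Its strongest probe set was at 10.08 in the 24 h pool, 8.99 and 9.32 in the animals and 10.39 in the 6 h pool, while another was at 8.01, 10.30, 9.34 and 9.93. The 2 weaker probe sets were split likewise, at 1.18 and -0.79 from the 24 h pool.

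On the lower side, Bcl6, a transcriptional repressor, was at 10.97 in the 24 h pool, 8.92 and 6.97 in the animals and 7.37 in the 6 h pool. Cyp7a1, which starts the main route from cholesterol to bile acids, was at 11.98, 10.88, 10.25 and 8.77 in that order. For both, the 24 h pool was the highest of the 4 arrays, and for Cyp7a1 the 6 h pool was more than 2-fold below both animals. Ildr2, a gene linked to hepatic lipid handling, was lower on 3 probe sets, by -1.88 ± 0.29, -2.12 ± 0.39 and -2.17 ± 0.35. Its strongest probe set was at 8.26, 6.25, 5.94 and 6.42. Cav2, caveolin 2 of membrane caveolae, was lower on 3 probe sets, by -1.41, -1.35 and -0.82, at 9.56 in the 24 h pool, 8.27 and 8.03 in the animals and 8.73 in the 6 h pool on 1 of them. Sorl1, a sorting receptor, was at 8.18, 7.28, 6.70 and 8.003 on its strongest probe set and at 5.70, 3.80, 4.43 and 4.67 on another. Thus Cav2, Ildr2 and Sorl1 were lower than both pools on their strongest probe sets, though by less than 2-fold against the 6 h pool in at least 1 animal. AA926063, Abcb9, a lysosomal peptide transporter, and Syne4, a nuclear envelope protein, were at 6.48, 4.46 and 5.80 in the 24 h pool, and each was lower in both animals and in the 6 h pool.

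By the mean of the 2 animals, the enzymes that handle drugs were mostly near the pool, though several differed between the animals. To read gene groups, 41 lists were counted over 10449 genes, each by its strongest probe set. A gene counts as higher or lower where both animals were at least 1.2-fold from the 24 h pool. Over all genes 537 (5.14%) were higher and 706 (6.76%) lower, and 216 (2.07%) were higher and 356 (3.41%) lower than both pools. Of 35 P450 genes 3 were higher and 2 lower, with a median difference of 0.03 against -0.01 over all genes. Cyp2c11, the main P450 of the male rat liver and a member of the family that oxidises TA, was at 14.33 in the 24 h pool, 13.73 and 14.54 in the animals and 14.45 in the 6 h pool. Cyp1a2 was at 13.70, 13.20, 14.05 and 13.95, and Cyp2e1 at 14.81, 14.86, 15.17 and 14.92. The animals lay on either side of the pool for Cyp2c11 and Cyp1a2. Cyp26a1, which degrades retinoic acid, was at 5.42, 6.40, 7.01 and 5.36, above both pools. Cyp3a2 was at 15.14, 14.78, 14.76 and 15.01, below both. Cyp2c12, the other lower P450 gene and also of the 2C family, was at 13.94, 13.60, 12.40 and 13.67, lowest in animal 2. Whether its probe set also reads other genes of that family was not tested.

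Of 49 conjugation enzymes 6 were higher (12.2%) and 3 lower, with a median of 0.10. Beside Gsta3 these included Nnmt, which methylates nicotinamide, at 11.09 in the 24 h pool, 11.78 and 11.62 in the animals and 10.31 in the 6 h pool. Gstm7 was at 9.76, 10.27, 10.49 and 10.08. Sult1c2, a sulfotransferase, was at 6.92, 5.86, 6.27 and 7.23. Of 30 targets of Nrf2, the factor that turns on antioxidant genes, 4 were higher (13.3%) and 1 lower, with a median of 0.14, and 2 were higher than both pools. The higher ones were Gsta3, Akr7a3, an aldehyde reductase, with 0.58 ± 0.14 but -0.29 against the 6 h pool, Gsr, glutathione reductase, with 0.52 ± 0.21, and Pgd of the pentose phosphate pathway with 0.40 ± 0.17. Nqo1, a quinone reductase, was at 11.69, 11.91, 11.74 and 10.997, Gclc, the catalytic subunit of glutathione synthesis, at 10.42, 10.69, 10.64 and 9.71, and Gclm, its modifier subunit, at 11.21, 11.38, 11.10 and 11.80. Hmox1, heme oxygenase, was at 9.06, 8.83, 8.91 and 9.08. Thus Nqo1 and Gclc lay nearer to the 24 h pool than to the 6 h pool, and Gclm and Hmox1 were not above both. Osgin1, another Nrf2 target, was at 12.31, 11.61, 11.34 and 13.52.

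Of 39 transporters 5 were higher (12.8%) and 4 lower (10.3%), and the same 4 were lower than both pools while 0 were higher than both. Slc17a1, a phosphate and urate transporter, was at 10.28, 11.14, 10.80 and 10.66 in the 24 h pool, the animals and the 6 h pool. Slc22a5, the carnitine transporter, was at 6.68, 5.86, 6.12 and 6.71. Of 32 genes of purine degradation and urate handling, the process TA alters in the kidney, 2 were higher (6.25%) and 1 lower. The 2 higher genes were Slc17a1, given above, and Mocos, an enzyme that matures the molybdenum cofactor, at 6.63, 7.32, 7.31 and 5.04. The lower gene was Prps2, with a difference of -0.54 ± 0.09. Uox, urate oxidase, was at 13.84, 14.07, 14.10 and 13.61. It was not counted as higher, since animal 1 was less than 1.2-fold above the 24 h pool.

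Amino acid breakdown and the urea cycle formed a list with many higher genes. Of 54 measured, 17 (31.5%) were higher and 0 lower, and 9 (16.7%) were higher than both pools. Their median difference was 0.25, with 0.16 in animal 1 and 0.31 in animal 2, and 0.12 against the 6 h pool. Gpt, alanine aminotransferase, was at 10.13 in the 24 h pool, 10.87 and 11.90 in the animals and 10.43 in the 6 h pool. Got1, cytosolic aspartate aminotransferase, was at 7.66, 8.25, 9.33 and 8.60. Gls2, liver glutaminase, was at 12.53, 13.10, 13.13 and 12.83. For Gpt and Got1 animal 2 was the highest of the 4 arrays, and for Gls2 the animals were alike.

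Members on several branches of the pathway shared this direction at smaller sizes. In tryptophan breakdown, Kmo, kynurenine monooxygenase, was at 11.08 in the 24 h pool, 11.66 and 11.57 in the animals and 11.10 in the 6 h pool. Aadat, kynurenine aminotransferase II, was at 12.85, 13.34, 13.31 and 12.98, and Afmid, which makes kynurenine, at 11.20, 11.56, 11.64 and 10.53. These 3 enzymes stood above both pools in both animals. Tdo2 of the same branch was at 14.39, 14.53, 14.53 and 14.67, below the 6 h pool in both animals. In histidine breakdown, Hal was at 11.55, 12.18, 12.07 and 12.10 and Ftcd at 12.62, 12.95, 13.35 and 13.04, both near the 6 h pool in 1 animal. In glycine and glyoxylate metabolism, Agxt was at 11.72, 12.15, 12.19 and 11.88 and Gldc, of the glycine cleavage system, at 10.02, 10.54, 10.39 and 10.02. Of the urea cycle, Ass1 and Asl had 0.36 ± 0.10 and 0.40 ± 0.14, and Asl was at 12.35 in the 6 h pool with the animals at 12.32 and 12.11. Cps1 and Arg1 of the same cycle had -0.03 ± 0.11 and 0.14 ± 0.13. Tat, tyrosine aminotransferase, was at 11.20, 11.97, 11.52 and 10.07, far above the 6 h pool. By limma's test 0 of the genes of this list were called, and 539 of all 10449 genes (5.16%) had an unadjusted p under 0.05.

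**Figure D3:**
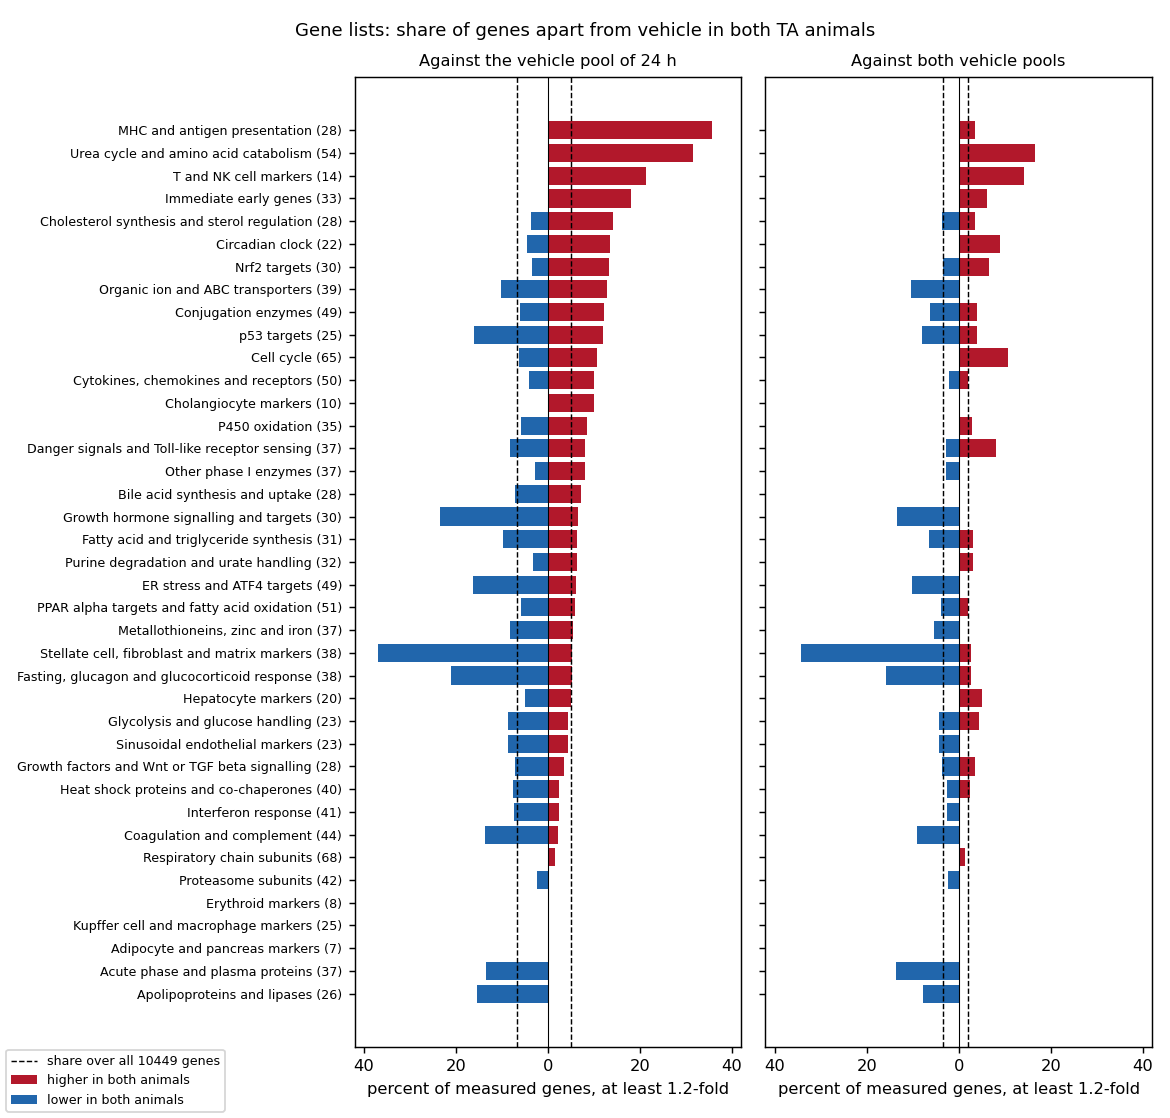
Share of measured genes at least 1.2-fold higher (red, to the right) or lower (blue, to the left) in both TA animals, for each list with at least 7 measured genes (number in brackets), against the 24 h pool on the left and against both pools on the right. Dashed lines mark the shares over all 10449 genes; the amino acid list reaches 31.5% higher and the stellate list 36.8% lower, while the antigen presentation list is at 35.7% on the left and 3.57% on the right.

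Genes of fasting, glucagon and glucocorticoid signalling were lower more often than higher. Of 38, 2 were higher and 8 lower (21.1%), with a median of -0.01 and of -0.43 against the 6 h pool, and 6 (15.8%) were lower than both pools. Ppargc1a, a coactivator of gluconeogenesis, was at 5.40 in the 24 h pool, 4.48 and 4.35 in the animals and 6.60 in the 6 h pool. Its other probe set was near the floor and gave -0.03. Igfbp1, which binds insulin-like growth factors and is held down by insulin, was at 8.02, 5.85, 7.16 and 8.41. Foxo1, the factor that insulin excludes from the nucleus, was at 6.61, 6.20, 6.16 and 7.07. Pck1, the gate of gluconeogenesis, was at 14.21, 14.21, 14.08 and 14.22, with no difference beyond its SE of 0.11. Sgk1, a kinase induced by glucocorticoids, was at 10.30, 10.57, 11.61 and 9.84, above both pools. Mt2A and Mt1 belong to this list as well as to that of metals. In the list of metallothioneins, zinc and iron, 2 of 37 were higher and 3 lower (8.11%), and Hamp, the iron hormone hepcidin, was at 12.05, 11.07, 12.95 and 12.28, with the animals on either side.

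Of 30 genes of growth hormone signalling, which sets the sex pattern of rat liver, 2 were higher and 7 lower (23.3%), with 4 lower than both pools. The lists overlap: of the lower genes, Bcl6, Igfbp1 and Igfbp2 were also counted in the fasting list. Cyp3a2 and Cyp2c12 were also counted among the lower P450 genes. Socs2, a feedback inhibitor, was at 6.13 in the 24 h pool, 6.98 and 6.99 in the animals and 9.16 in the 6 h pool. Lepr, the leptin receptor, was at 6.48, 5.47, 5.77 and 6.83, and Igfbp4 at 8.33, 7.82, 7.61 and 8.72. Socs2 was thus higher than 1 pool and lower than the other, while Lepr and Igfbp4 were lower than both. In this list 8 genes (26.7%) were 2-fold apart between the animals, against 283 (2.71%) of all genes. They included Hsd3b5, a steroid dehydrogenase of male liver, at 9.67 in animal 1 and 11.53 in animal 2 with the pools at 10.91 and 11.68, and the prolactin receptor Prlr at 9.26 and 6.99 with the pools at 7.91 and 8.25.

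Lipid genes gave both directions. Of 31 genes of fatty acid and triglyceride synthesis, 2 were higher and 3 lower (9.68%), with a median of -0.02. Acaca, acetyl-CoA carboxylase, was at 10.86 in the 24 h pool, 9.87 and 10.08 in the animals and 10.68 in the 6 h pool. Scd, stearoyl-CoA desaturase, was at 13.67, 13.13, 12.42 and 14.09. Both were lower than both pools, while Srebf1, the factor that drives them, was at 11.36, 11.72, 11.66 and 10.62, and its second probe set gave 0.55 ± 0.18. Of 51 PPAR alpha targets and fatty acid oxidation genes 3 were higher and 3 lower (5.88% each), with a median of 0.00. Crot, a peroxisomal carnitine acyltransferase, was higher on both probe sets, by 0.63 ± 0.32 and 1.35 ± 0.38, and Cyp4a1 and Cyp4a3, which hydroxylate fatty acids, had 0.46 ± 0.21 and -0.54 ± 0.35. Of 28 genes of cholesterol synthesis and sterol regulation 4 were higher (14.3%), namely Abcg5, Abcg8, Lss and Insig1, while Abca1 was lower on its strongest probe set. Of the 4, Insig1 alone was also higher than the 6 h pool by this measure in both animals. Lss, lanosterol synthase, was higher on both probe sets, by 0.52 ± 0.33 and 0.98 ± 0.30, and Insig1, which holds back sterol synthesis, was at 12.47, 13.24, 12.74 and 12.40. Of 28 genes of bile acid synthesis and uptake 2 were higher and 2 lower, and 0 lay beyond both pools.

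Of 37 acute phase and plasma protein genes 0 were higher and 5 lower (13.5%), and the same 5 were lower than both pools, with a list median of -0.04. Beside Serpina7 and A2m these were Lbp, which presents bacterial lipopolysaccharide, at 10.17 in the 24 h pool, 8.99 and 9.25 in the animals and 10.13 in the 6 h pool. Stat3, which carries the interleukin-6 signal, was at 9.74, 8.94, 8.99 and 10.33, with -0.28 ± 0.23 on its second probe set. Serpina3n, an acute phase antiprotease, was at 14.64, 14.07, 13.80 and 14.62. Of 44 coagulation and complement genes 1 was higher and 6 lower (13.6%), with 4 lower than both pools. F5, coagulation factor V, was at 11.87, 11.03, 11.33 and 12.22, C9, of the membrane attack complex, at 14.26, 13.78, 13.87 and 14.41, and C5 at 13.69, 13.31, 12.83 and 13.76. Plg, plasminogen, was at 13.80, 14.36, 14.29 and 14.26. Of 26 apolipoprotein and lipase genes 0 were higher and 4 lower (15.4%). The 4 were Lpl, with the largest difference, Lrp2, Vldlr and Angptl4, so that no apolipoprotein was among them. For Lrp2 the 6 h pool, at 4.79, was close to the animals at 4.77 and 4.73. For Angptl4 the 6 h pool, at 10.02, lay between the animals at 10.43 and 9.79.

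Markers of stellate cells, fibroblasts and their matrix were lower more often than those of any other cell type list with at least 7 measured genes. Of 38 measured, 14 (36.8%) were lower and 2 higher, and 13 (34.2%) were lower than both pools. The median was -0.38, with -0.57 in animal 1 and -0.26 in animal 2, and -0.76 against the 6 h pool. Sparc, a matrix glycoprotein, was at 10.83 in the 24 h pool, 10.23 and 10.22 in the animals and 10.68 in the 6 h pool. Col14a1, a collagen on fibril surfaces, was at 10.41, 9.72, 9.70 and 10.47, and Loxl2, which crosslinks collagen, at 5.74, 4.45, 4.90 and 6.63. The animals were below both pools for all 3 genes. A set of 12 collagens was chosen after the values were seen and is given without a test. All 12 belong to the stellate list and are already in its counts. Of them, 6 were lower than the 24 h pool and 0 higher than either pool. Against the 6 h pool 12 were lower, against 1648 (15.8%) of all genes.

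Other matrix genes of the same list, also in its counts, are given by their values. Mgp, matrix Gla protein, was at 10.24, 9.42, 8.999 and 9.73, Fbn1, fibrillin, at 5.52, 4.90, 4.51 and 6.25, and Col6a3 at 7.08, 6.35, 6.10 and 7.12. Dcn, decorin, was at 7.14, 6.87, 4.88 and 7.15, so that its low value was that of animal 2. In the growth factor list, Ccn2, connective tissue growth factor, was at 5.06, 4.26, 3.91 and 4.76, and Inhba, a subunit of activin, was lower on both probe sets, by -0.80 ± 0.28 and -1.03 ± 0.45. Lox, lysyl oxidase, went the other way on both probe sets, at 6.91, 8.37, 8.67 and 7.46 on 1 and at 6.78, 7.60, 7.86 and 6.92 on the other. Cell markers in the stellate list were mixed. Lrat was at 9.67, 9.01, 9.78 and 9.80, Pdgfrb at 5.62, 4.91, 5.68 and 5.82, and Pdgfra at 9.26, 8.37, 9.23 and 9.53. Each of these was lower than the 24 h pool by the 1.2-fold measure in animal 1 alone. Reln, at 9.90, 9.09, 9.58 and 10.09, was lower than both pools in both animals. Hand2, at 3.51, 3.81, 3.81 and 3.83, was higher than the 24 h pool. Summed over the stellate list, the log2 marker level was 14.41 in the 24 h pool, 13.91 and 14.14 in the animals and 14.74 in the 6 h pool. In a bulk sample, fewer cells of a type and less RNA per cell cannot be told apart.

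**Figure D4:**
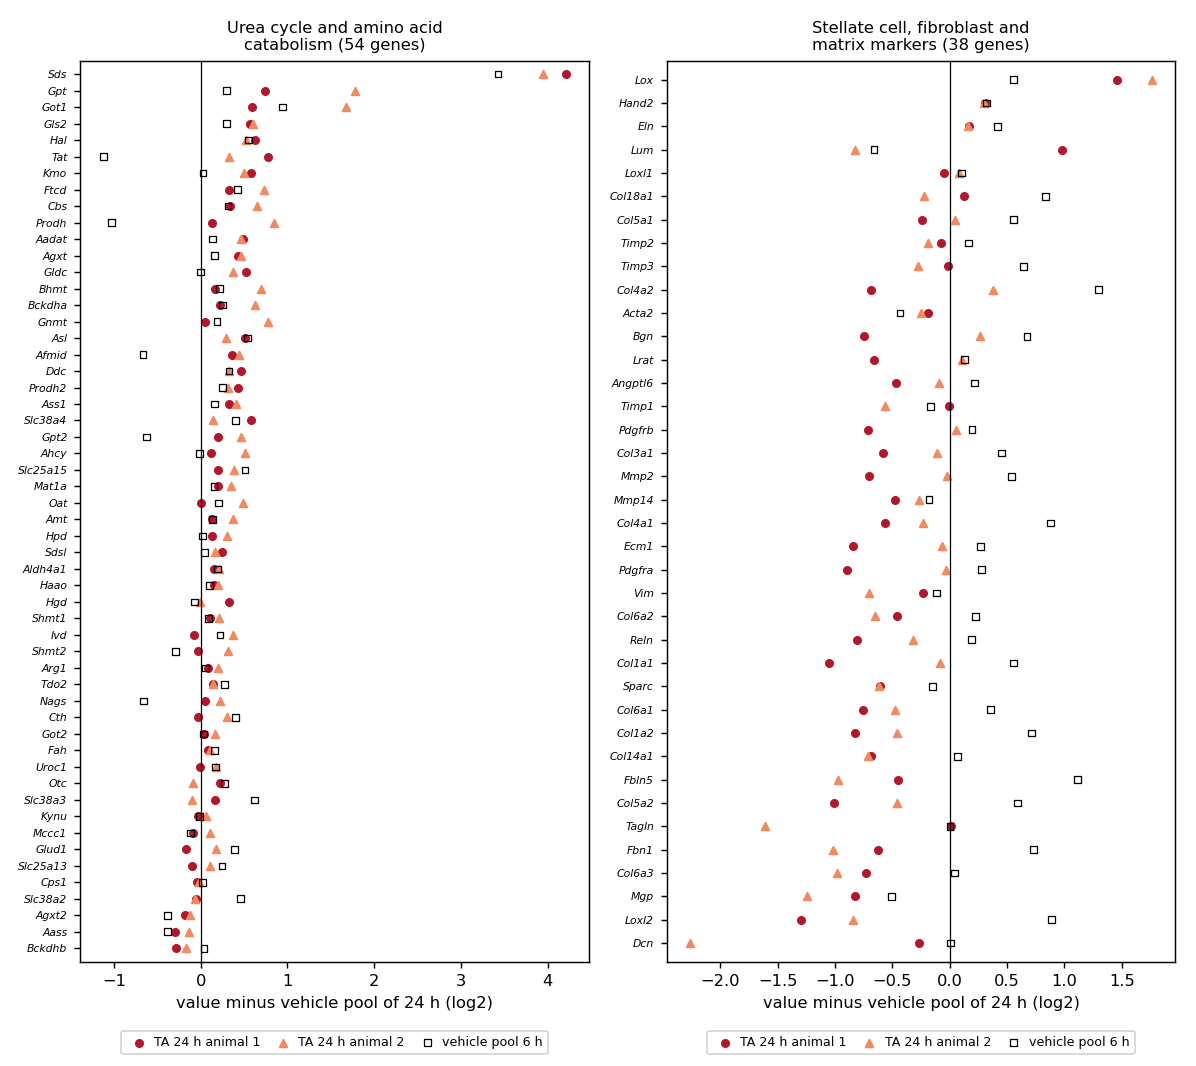
Log2 value minus the 24 h vehicle pool for every measured gene of the amino acid list (left, 54 genes) and of the stellate cell and matrix list (right, 38 genes), for animal 1 (circles), animal 2 (triangles) and the 6 h pool (open squares). Sds is far to the right in both animals and in the 6 h pool, and most matrix genes lie left of 0 in both animals while the 6 h pool lies mainly right of it.

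The summed markers of other cell types were compared likewise, with no test. They were 14.38 in the 24 h pool and 14.28 and 14.45 in the animals for macrophages, where 0 of 25 genes were higher or lower, and 13.57, 13.28 and 13.61 for sinusoidal endothelium. For T and NK cells they were 8.34, 8.61 and 8.50, with 3 of 14 genes (21.4%) higher and 0 lower. Cd3g of the T cell receptor complex was at 2.68, 3.41 and 3.27 with the 6 h pool at 2.68, and the chemokine Ccl5 at 5.53, 5.98, 6.33 and 6.70. The T cell values were low, near the floor for Cd3g. The erythroid sum was 14.51, 14.12 and 14.72, with the animals on either side.

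Of 28 genes of the MHC (RT1 in the rat) and antigen presentation, 10 (35.7%) were higher and 0 lower, while 1 (3.57%) was higher than both pools, and the median was 0.11 and -0.08 against the 6 h pool. RT1-Bb, a class II beta chain, was at 8.13 in the 24 h pool, 9.56 and 9.30 in the animals and 9.60 in the 6 h pool on its strongest probe set. Its other probe set was at 7.22, 2.53, 2.43 and 2.55, which is the opposite direction and the smallest adjusted p of a probe set with a symbol. RT1-Ba, the class II alpha chain, was at 9.18, 10.40, 10.11 and 10.13, with 8.48, 8.68, 8.32 and 8.43 on its second. RT1-DMa, which loads peptide onto class II, was at 5.66, 6.61, 6.30 and 5.31, the 1 gene above both pools. Cd74, the invariant chain, was at 10.08, 10.43, 10.52 and 10.84. Near-identical copies of RT1 genes can share probes, and their probe sets may read different alleles, which was not tested.

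Danger signal and inflammatory genes gave few and mixed differences. Of 37 danger signal and Toll-like receptor genes 3 were higher and 3 lower (8.11% each). Adora2b and Adora1, which sense extracellular adenosine, were both higher than both pools, Adora1 at 6.21, 6.84, 6.78 and 6.24. Il33, an alarmin, was at 10.35, 10.65, 10.64 and 10.05. S100a9, a neutrophil alarmin, was at 5.37, 3.93, 4.70 and 3.93, and S100a8, its partner, at 3.90, 3.81, 3.84 and 3.76, both with the 24 h pool highest. Of 50 cytokine and chemokine genes 5 were higher (10%) and 2 lower. Ccl19 was at 3.40, 4.61, 4.50 and 4.51, and Cxcl1, which draws neutrophils, at 4.18, 2.14, 3.72 and 4.18. Of 41 interferon response genes 1 was higher and 3 lower (7.32%), with a median of -0.15.

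In 9 of the 41 interferon genes (22%) the animals were 2-fold apart, against 2.71% of all genes. Isg15, a ubiquitin-like modifier, was at 8.98 in animal 1 and 7.56 in animal 2, with the pools at 8.87 and 8.45. Mx2, an antiviral GTPase, was at 7.28 and 5.88 with both pools at 7.37, and Usp18, which removes Isg15, at 7.30 and 5.89 with the pools at 7.20 and 7.41. For these genes animal 1 lay at the level of the pools and animal 2 below it. Rsad2, viperin, was the other way, at 8.98 and 10.29 with the pools at 9.45 and 9.20.

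Cell cycle genes were found on both sides of the 24 h pool. Of 65, 7 were higher (10.8%) and 4 lower (6.15%), and the same 7 were higher than both pools while 0 were lower than both. Beside Ccne2, Gins1 of the replication helicase was at 4.14 in the 24 h pool, 5.13 and 4.94 in the animals and 3.73 in the 6 h pool. Mcm6, a helicase subunit, was at 6.68, 7.24, 7.86 and 5.74, and Prim1, the primase, at 8.71, 9.02, 9.38 and 8.27. The 4 lower genes act in mitosis: Cenpf, of the kinetochore, was at 7.64, 6.78, 6.96 and 6.08, Mki67 at 7.74, 6.98, 7.15 and 6.91, the spindle motor Kif11 at 4.38, 3.70, 3.76 and 2.96, and Top2a at 9.04, 8.64, 8.67 and 7.23 on its stronger probe set. The weaker probe set of Top2a went the other way, at 5.66, 6.02, 6.37 and 4.52. All 4 were above the 6 h pool. Over 18 replication genes, chosen after the values were seen and given without a test, 5 were higher and 0 lower, with a median of 0.30. Over 35 mitosis genes chosen likewise 2 were higher and 4 lower, with a median of -0.01. Against the 6 h pool, 12 of the 18 and 26 of the 35 were higher, against 1076 (10.3%) of all genes. Ccnd1, cyclin D1, was at 9.22, 8.85, 9.23 and 10.43.

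Of 25 p53 targets 3 were higher (12%) and 4 lower (16%). Cdkn1a, the inhibitor p21, was at 7.80, 8.77, 8.52 and 7.08 on its stronger probe set, above both pools, and at 3.68, 3.04, 2.75 and 2.93 on the weaker. Mdm2 and Mdm4, which restrain p53, had -0.29 ± 0.09 and -0.40 ± 0.10. Of 33 immediate early genes 6 were higher (18.2%) and 0 lower. Srf, the serum response factor, was at 6.42, 7.51, 7.05 and 7.15, Klf10 at 7.98, 8.50, 9.11 and 8.80, and Ier5 at 8.44, 8.97, 8.96 and 8.10. Of the 6 higher genes, Ier5 and Sgk1 were above both pools in both animals by this measure. For Srf and Klf10 the 6 h pool lay between the animals. The counts of this list are against the 24 h pool alone. Against the 6 h pool members went both ways, with Egr1 at -3.56, Junb at -2.54, Jun at -2.26, Ier5 at 0.87 and Sgk1 at 1.24.

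Among 49 targets of ER stress and of the factor ATF4, 3 were higher and 8 lower (16.3%), with 5 (10.2%) lower than both pools and a median of -0.09. Phgdh, the first enzyme of serine synthesis, was at 7.10, 6.26, 6.24 and 7.67, and Psph, the last, at 8.49, 8.13, 8.02 and 8.06. Asns, asparagine synthetase, was at 6.89, 6.00, 6.50 and 6.38. Trib3, a pseudokinase, was at 4.68, 5.65, 5.41 and 6.68, and 2 further probe sets gave 0.94 and 0.62. Nupr1, a stress-induced cofactor, was at 9.30, 8.36, 8.25 and 9.39. Psat1, the enzyme between Phgdh and Psph, was at 7.95, 7.55, 7.84 and 7.96. Thus Phgdh, Psph and Nupr1 were lower than the 24 h pool by the 1.2-fold measure and Psat1 was not, while Trib3 was higher and stood below the 6 h pool. Hspa5, the ER chaperone BiP, was at 14.58, 14.53, 14.31 and 14.11, and over 23 ER chaperones and degradation factors, chosen after the values were seen, the median was -0.12 with 3 lower and 0 higher.

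Of 68 respiratory chain subunits 1 was higher (1.47%) and 0 lower, though the median was 0.12, and of 42 proteasome subunits 0 were higher and 1 lower (2.38%). Of 40 heat shock proteins 1 was higher and 3 lower (7.5%), with Hspb6 and Cryab, small heat shock proteins, at -0.86 ± 0.22 and -0.62 ± 0.28. Of 22 clock genes 3 were higher (13.6%), Noct among them, and 1 was lower (4.55%), Rora, at 8.09, 7.54, 7.37 and 7.31. Nr1d1, a repressor of the clock, was at 1.97 in the 24 h pool, 1.96 and 1.96 in the animals and 7.51 in the 6 h pool. Bmal1 was at 8.18, 8.33, 8.22 and 6.91, and Dbp at 4.09, 4.91, 3.56 and 8.51. For Nr1d1, Bmal1 and Dbp the 6 h pool was further from the 24 h pool than either animal was, though the animals were more than 2-fold apart for Dbp. Clock, the partner of Bmal1, was at 10.35, 10.34, 10.22 and 10.17, close together on all 4 arrays.

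The 2 treated animals were at least 2-fold apart for 538 probe sets (2.89%), with animal 1 higher in 197 and animal 2 in 341. Mlc1, a membrane protein named for a leukoencephalopathy, was at 10.31 in animal 1 and 1.98 in animal 2, with the pools at 7.10 and 8.59. Serpinb9b, a serine protease inhibitor, was at 10.22 and 2.45 with the pools at 10.15 and 8.38. Both genes were at the floor in animal 2 alone. Leaving out animal 1, Serpinb9b was called by limma with a difference of -7.70 and an adjusted p of 0.0170, which then rests on animal 2 alone, and leaving out animal 2 its difference was 0.076. Abhd3, which cleaves phospholipids, was at 3.01 in animal 1 and 7.73 in animal 2 with the pools at 3.00 and 2.98, and Exosc3, an exosome subunit, at 5.22 and 8.45 with the pools at 5.10 and 5.39. These were near the pools in animal 1 and far above them in animal 2. Pnpla3, a lipid droplet lipase, was at 9.17 and 6.06 with the pools at 7.71 and 5.95. Its second probe set differed from the 24 h pool by -0.43.

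Of 37 phase I enzymes other than P450s, 10 (27%) were 2-fold apart, against 283 (2.71%) of all genes. Akr1c1, a hydroxysteroid dehydrogenase, was at 9.47 in animal 1 and 12.32 in animal 2, with the pools at 11.04 and 11.23. Fmo1, a flavin monooxygenase, was at 9.28 and 11.13 with the pools at 10.23 and 10.50, and Aox1, aldehyde oxidase, at 12.42 and 10.87 with the pools at 11.15 and 12.02. Nr1i3, the receptor CAR that senses foreign compounds, was at 3.67 and 6.24 with the pools at 4.42 and 6.72. For Akr1c1 and Fmo1 the pools lay between the animals, so that their mean differed little from the pool while each animal differed much. Acmsd, which steers tryptophan away from NAD synthesis, was at 3.53 and 6.68 with the pools at 3.66 and 3.25.

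**Figure D5:**
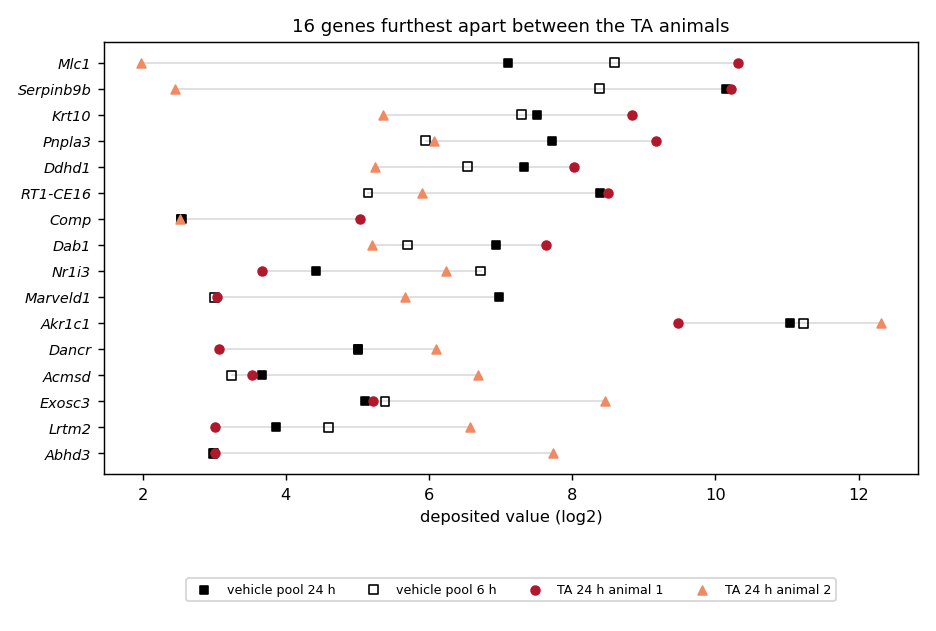
Deposited log2 values of the 16 genes with the largest difference between the 2 TA animals, 8 in each direction, with circles for animal 1, triangles for animal 2, filled squares for the 24 h pool and open squares for the 6 h pool. Mlc1 ranges from 1.98 in animal 2 to 10.31 in animal 1, and for Akr1c1 the pools at 11.04 and 11.23 lie between the animals at 9.47 and 12.32.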

How the data were processed

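Values were the log2 levels deposited by the authors for Affymetrix Rat230_2 arrays. The submitters' processing notes name R 2.0.1, affy 1.5.8, RMA and GCRMA, without saying whether RMA or GCRMA gave the deposited values. Control probe sets (57 of 31099) were left out. Of the remaining probe sets 20826 had 1 gene symbol in the platform annotation, 436 several and 9780 none, and no gene was named from the last 2 kinds. The 18625 probe sets with a mean over 6 arrays above the 40th percentile (2.82) were kept. A model with 4 group means was fitted to all 6 arrays with limma 3.58.1 in R 4.3.3, tested on simulated data, with Benjamini-Hochberg adjustment over all probe sets kept and a threshold of 0.05. Its p-values measure the spread between these animals only. For gene lists the probe set with the highest mean stood for its gene.

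The genes compared and the 41 lists were chosen with earlier results of these data known. Genes were named by rule: those 2-fold beyond both pools in both animals, up to 12 more each way 2-fold from the 24 h pool, probe sets called by limma, up to 4 genes of each list, fixed marker genes, and the 8 each way furthest apart between the animals. Chosen outside this rule, after their values were seen, were Aadat, Afmid, Agxt, Aox1, Asl, Asns, Ass1, C5, Cav2, Cd74, Clock, Col14a1, Dcn, Fbn1, Fmo1, Foxo1, Ftcd, Gldc, Hal, Hsd3b5, Hspa5, Igfbp4, Il33, Insig1, Isg15, Kif11, Klf10, Kmo, Lepr, Mcm6, Mdm2, Mki67, Mx2, Pgd, Prim1, Prlr, Psat1, Psph, Rsad2, Serpina3n, Sgk1, Slc22a5, Sparc, Top2a and Usp18, and likewise the probe sets 1393108_at and 1393302_at and the sets of collagens, replication, mitosis and ER chaperone genes. Alternatives were the filter, the normalization, the reference pool, the arrays fitted, the prior, the replicate number as a block, each TA array left out, the fold and the choice of probe set. Fluidics runs were inferred from gaps between the hybridisation times of day in the deposited instrument files.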

Additional observations from a re-analysis of the deposited data

Results flagged for a closer look

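The probe set 1393108_at, which has no gene symbol here, was singled out because its TA effect at 24 h differed from that at 6 h in limma's interaction test, by -7.21 on the log2 scale, the 1 probe set of 18625 with such a call. At 24 h the vehicle pool stood at 9.84 and the TA animals at 2.22 and 2.25. At 6 h the vehicle pool stood at 2.61 and the TA animals at 2.19 and 2.24. The difference thus rested on the 1 array of the 24 h pool, the other 5 being at the floor of the values. Without any 1 TA array the interaction test called 0 probe sets.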

How the results depend on the processing

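With 1 pooled vehicle array and 2 animals, the replicate number limits every comparison, and depth has no meaning for these array values. The 1 probe set called by limma became 0 with a filter at the 60th percentile, with the 6 h pool as reference, with both pools as 1 control group, in a fit of the 24 h arrays only and with the replicate block. It became 2 with a prior that follows the mean level, which added the weaker RT1-Bb probe set. Leaving out 1 TA array gave 0 to 2, and Serpinb9b was added without animal 1. A lone TA array is there assumed to vary like the other groups. Unadjusted p under 0.05 was reached by 984 probe sets in the fit as reported. The 1 call of the difference between times became 0 with the 60th percentile filter, with the replicate block and without any 1 TA array. The replicate numbers do not pair the animals of 6 and 24 h, whose same-numbered deviations correlated at -0.08. The counts of 44 higher and 64 lower by 2-fold were 166 and 290 against the 6 h pool, 32 and 41 with the 60th percentile filter, 9 and 22 at 3-fold, and 137 to 192 and 217 to 275 with 1 TA animal. The counts beyond both pools, 14 and 24, were 2 and 5 at 3-fold and 71 to 91 and 111 to 180 with 1 animal, and the higher count was 8 with the 60th percentile filter. The count of 538 between the animals was 171 at 3-fold. Among 185 named probe sets, 53 turned sign under at least 1 alternative, 91 turns in all, of which 55 were of a difference no larger than its SE, and the cause was not tested. For Fnip1, Rfc1, Tm9sf3, Traf6 and Zfp212 the turned probe set was not the one 2-fold below both pools. It differed from the 24 h pool by -0.13, 0.06, -0.01, -0.04 and 0.11 in that order. The probe sets of these genes that were 2-fold below both pools did not turn. Against the 6 h pool these differences were Abca1 (weaker probe set) -0.11, Abcb9 0.36, Akr7a3 -0.29, Alb -0.053, Aox1 -0.38, Asl -0.14, Bcl6 0.57, Ccl5 -0.54, Cd74 -0.36, Cenpf 0.79, Clock 0.12, Cyp7a1 1.79, Dbp -4.28, Gclm -0.56, Hspa5 0.31, Kif11 0.77, Mki67 0.16, Nr1i3 -1.77, Onecut1 -1.52, Pnpla3 1.67, Prlr -0.13, Psph 0.017, Rfc1 -0.32, Rora 0.15, RT1-Bb -0.17, S100a8 0.058, S100a9 0.38, Slc25a30 -1.87 and -1.99, Socs2 -2.17, Sqor -0.22, Syne4 0.62, Top2a 1.43, Trib3 -1.15 and Zfp212 -0.028. With both pools as 1 group they were Alb -0.011, Cenpf 0.0076, Clock 0.023, Cyp7a1 0.19, Dbp -2.07, Gclm -0.27, Hspa5 0.072, Kif11 0.062, Nr1i3 -0.62, Pnpla3 0.78, Rfc1 -0.13, Slc25a30 -0.15 and -0.43, Socs2 -0.66, Top2a 0.52 and Trib3 -0.15. With the replicate block they were Gclm -0.14, Mlc1 1.38, Nr1d1 0.14, Pnpla3 0.58, Rsad2 -0.053 and Tm9sf3 0.067. Over the mean of a gene's probe sets they were Abca1 0.32, Rfc1 -0.58, RT1-Bb -1.72, Top2a 0.077 and Zfp212 -0.63. Quantile normalization gave Alb 0.00, Gclm -0.011 and Nr1d1 0.0026, and centring on the array median Nr1d1 0.0044 and Tm9sf3 0.0025. With 1 TA array left out the ranges were Acmsd -0.13 to 3.02, Akr1c1 -1.57 to 1.27, Aox1 -0.28 to 1.28, Ccnd1 -0.37 to 0.016, Cyp1a2 -0.50 to 0.35, Cyp2c11 -0.60 to 0.20, Dbp -0.53 to 0.81, Fmo1 -0.95 to 0.90, Fnip1 -0.36 to 0.11, Gclm -0.11 to 0.17, Hamp -0.98 to 0.90, Hsd3b5 -1.25 to 0.61, Isg15 -1.32 to 0.11, Mlc1 -5.12 to 3.21, Nr1i3 -0.75 to 1.82, Pnpla3 -1.65 to 1.46, Prlr -0.92 to 1.35, Rfc1 -0.044 to 0.16, Rsad2 -0.47 to 0.83, Serpinb9b -7.70 to 0.076, Tm9sf3 -0.15 to 0.13, Traf6 -0.12 to 0.028, Usp18 -1.31 to 0.10 and Zfp212 -0.16 to 0.37. Of 42 medians (41 lists and all genes), 33 moved by more than the animals' spread against the 6 h pool, 22 with both pools as 1 group and 13 without either TA animal of 24 h.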
